A study of Mus musculus with 4 samples.

Results

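The genes described here mark the walls of the small blood vessels of the brain. The 41 mouse genes fall into 4 groups: 21 genes of endothelial identity and junctions, 6 transporters of the blood-brain barrier, 9 pericyte genes and 5 contractile genes of smooth muscle. They were chosen by name, with earlier results of these data known. Each was found on the array by matching the transcript accession of a probe to the gene. The 41 genes had 48 probes, of which 46, for 40 genes, passed a filter on dim spots (well above background in the red channel of all 4 arrays or in the green channel of all 4) and were tested among 15759 genes. Des, a muscle intermediate filament gene, did not pass, as its probe was well above background on 3 arrays in each channel.

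The samples were total RNA of cerebral cortex from C57BL/6N-background males, 3 months old. The first group was labelled Ndrg2-/- and the other wild type, with 4 samples each, and no other allele or treatment is named in the labels. Ndrg2 encodes a protein of the N-myc downstream regulated family that astrocytes express strongly in the brain. Each dual-colour Agilent array carried 1 sample labelled knockout, dyed red with Cy5, and 1 wild-type sample, dyed green with Cy3. No array had the dyes exchanged, so genotype and dye cannot be told apart for any gene below. The labels do not say how the Ndrg2 allele was made, which exons it lacks, or whether each RNA came from 1 animal or several, so the p-values measure only the spread between these samples.

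Every difference below is a log2 ratio of the sample labelled knockout over the wild-type sample on the same array, given as the mean ± SD with n = 4 arrays. Every level is a normalized log2 signal of 1 probe in 1 channel, and levels of different probes are not set against each other. A gene was called higher or lower at an adjusted p under 0.05 in limma, with Benjamini-Hochberg adjustment over all probes kept.

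The Ndrg2 probe (NM_013864, chromosome 14) went against the labels. Its log2 ratio was 0.11, 0.37, 0.40 and 0.38 on arrays 1 to 4, with a mean of 0.32 ± 0.14 (SD, n = 4; limma adjusted p = 0.0173). The adjusted p was 0.0795 without array 2 and 0.0651 without array 3, with means of 0.30 and 0.29. All 4 samples labelled knockout thus had a higher Ndrg2 signal than their partners, and where this probe lies relative to the deleted part of the gene is not given in the sources used here. Directions below are therefore those of the samples labelled knockout. The median spot had a green signal of 94 to 122 and a red signal of 283 to 335.5, and between 71.2% and 74.0% of spots were well above background on each array. All 4 arrays lay on 1 slide in 1 scan. The filter on dim spots passed 7 of 7 neuronal, 10 of 10 astrocyte and 6 of 6 oligodendrocyte genes. It also passed 13 of 13 meningeal fibroblast and 5 of 5 choroid plexus genes, so passing it does not identify the tissue.

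The blood-brain barrier is formed by endothelial cells that seal the spaces between them with tight junctions and move nutrients and drugs through dedicated transporters. Pericytes sit on the capillary wall within the basement membrane, receive PDGF signals from the endothelium and help keep the barrier tight. Smooth muscle cells wrap arteries and arterioles and change vessel calibre through an actin and myosin apparatus, whose genes are switched on by serum response factor (SRF) bound to the CArG box. Astrocyte endfeet cover nearly the whole vessel surface. In bulk tissue RNA, fewer cells of a type and less RNA per cell cannot be told apart.

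Of the 40 vascular genes tested, 7 were higher in the samples labelled knockout: Mcam, Slc2a1, Vwf, Ly6a, Tjp1, Pecam1 and Notch3. These were 17.5% of the genes tested, beside 9.12% of all 15759 genes called higher. No member was called lower by limma, beside 5.84% of all genes, although 3 members were lower at an unadjusted p under 0.05. In either direction, 18 members (45.0%) had an unadjusted p under 0.05, against 34.8% of all genes. The mean ratio was above 0 for 31 members (77.5%), beside 54.9% of all genes, and below 0 for 9. The median over members was 0.11 against 0.01 for all genes tested. When the ratios were centred on each array's median over all probes, without the intensity-dependent loess correction, the median of all genes moved to 0.28, the counts over all genes from 1437 higher and 920 lower to 10645 and 2326, and the members' counts to 35 higher and 1 lower. Above the all-gene median, the contractile median stood 0.40 higher under either scaling, the pericyte median 0.08 and 0.11 higher, the transporter median 0.03 and 0.09 and the endothelial median 0.02 and 0.02.

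The ratio was above 0 on all 4 arrays for 14 members, out of 40, beside 24.1% of all genes. It was below 0 on all 4 arrays for 3 members, Cldn5, Egfl7 and Erg, beside 18.6%. No member passed 1.5 fold, the size named in the series design, in the same direction on all 4 arrays, which 15 genes or 0.0952% of all genes did. With 1 array left out, 2, 2, 1 and 3 members were called without arrays 1, 2, 3 and 4, and 3 were called from the processed signals of the scanner software, where Slc2a1, Vwf, Ly6a and Notch3 missed the threshold. The called differences were thus modest, between 1.13-fold for Notch3 and 1.42-fold for Mcam.

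**Figure D1:**
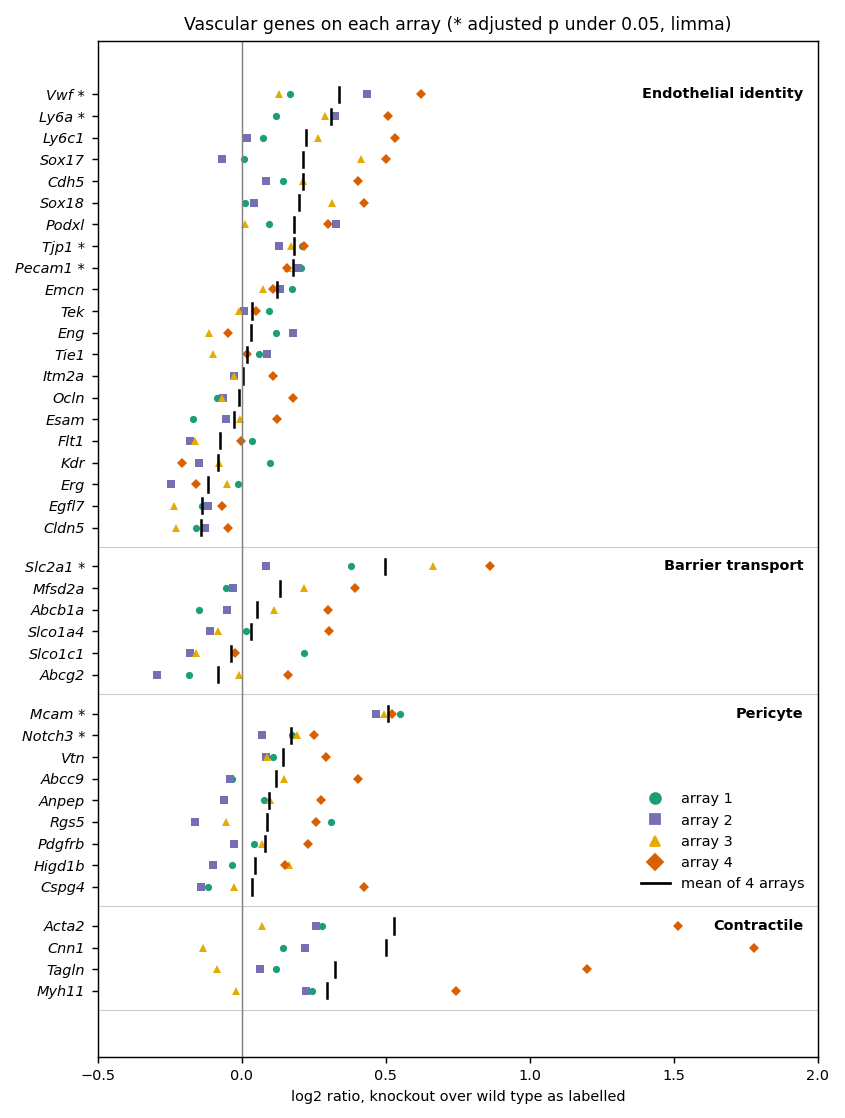
Log2 ratio of the sample labelled knockout over wild type (x axis) for the 40 tested vascular genes (y axis, by group), with 1 point for each array and a bar at the mean of 4 arrays. Asterisks mark the 7 genes with a limma adjusted p under 0.05. The points of Mcam lie close together between 0.47 and 0.55, whereas those of Acta2, Cnn1 and Tagln lie between -0.14 and 0.28 on 3 arrays and between 1.20 and 1.78 on array 4.

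The groups differed in how their arrays spread. The endothelial identity genes had array medians of 0.07, 0.02, -0.01 and 0.12 on arrays 1 to 4, and a median of 0.03 over the mean ratios of its 21 genes. The 6 barrier transporters had array medians of -0.02, -0.08, 0.05 and 0.30, and a median of 0.04. The 9 pericyte genes had array medians of 0.08, -0.04, 0.10 and 0.27, with a median of 0.10. The 4 tested contractile genes had array medians of 0.19, 0.22, -0.05 and 1.36, with a median of 0.41. The median of all genes stayed between 0.01 and 0.02 on every array. Array 4 thus stood highest in each of the 4 groups.

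Of the 40 members, 27 (67.5%) had their largest ratio on array 4, which was the case for 29.7% of all genes. Without array 4 the median fell from 0.41 to 0.11 for the contractile genes and from 0.10 to 0.03 for the pericyte genes, and for the transporters it went from 0.04 to -0.03. For the endothelial genes it was 0.06 without array 4. Since the arrays are separate pairs of samples, these values describe 1 pair against 3 others, and what sets the fourth pair apart was not tested.

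**Figure D2:**
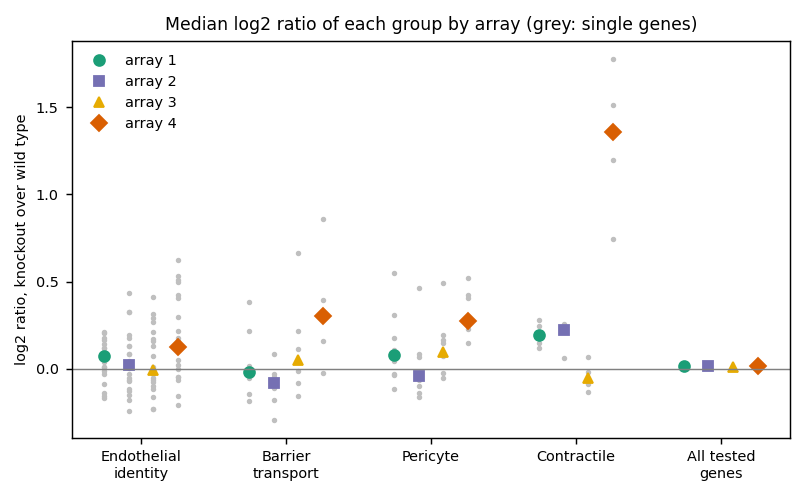
Log2 ratio of knockout over wild type (y axis) on each of the 4 arrays for the 4 groups of vascular genes and all 15759 tested genes (x axis). Large symbols are the median of the group on that array and grey dots are single genes. The contractile median on array 4 is 1.36, against -0.05 to 0.22 on the other 3 arrays, and the medians of all genes are between 0.01 and 0.02.

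Among the endothelial identity genes, 4 of 21 were higher: Vwf, Ly6a, Tjp1 and Pecam1. Vwf (NM_011708, chromosome 6) encodes von Willebrand factor, the clotting protein stored in endothelial granules. Its ratio was 0.17, 0.44, 0.13 and 0.62 on arrays 1 to 4, with a mean of 0.34 ± 0.23 (SD, n = 4; 1.26-fold; limma adjusted p = 0.0387). The ratio was above 0 in every pair, but the levels overlapped between channels, at 10.75 to 11.29 in knockout and 10.46 to 10.95 in wild type. Ly6a (NM_010738, chromosome 15), the Sca-1 surface antigen found on brain endothelium, had ratios of 0.12, 0.33, 0.29 and 0.51, with a mean of 0.31 ± 0.16 (SD, n = 4; 1.24-fold; limma adjusted p = 0.0224). Its levels were 11.18 to 11.36 in the knockout samples and 10.73 to 11.07 in the wild-type samples.

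Pecam1 and Tjp1 changed less but more evenly. Pecam1 (NM_001032378, chromosome 11), the CD31 adhesion molecule of endothelial contacts, had ratios of 0.21, 0.20, 0.16 and 0.16, with a mean of 0.18 ± 0.03 (SD, n = 4; 1.13-fold; limma adjusted p = 0.0246). Tjp1 (NM_009386, chromosome 7) encodes ZO-1, the scaffold that ties tight junctions to actin and that many other cell types also express. Its ratios were 0.21, 0.13, 0.17 and 0.22, with a mean of 0.18 ± 0.04 (SD, n = 4; 1.13-fold; limma adjusted p = 0.0262). Both SDs were below the median SD of 0.089 over all genes. Podxl, with a mean of 0.18 and an SD of 0.15, was not called, so small SDs at this mean go with the calls themselves.

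Leaving out arrays ended most of these calls. Vwf and Tjp1 each lost the call without any 1 of the 4 arrays, with limma adjusted p of 0.0517 to 0.143 for Vwf and 0.0614 to 0.0916 for Tjp1. Pecam1 lost it without array 1, 2 or 3 (0.0836 to 0.0994), and Ly6a without array 2 or 3 (0.0926 and 0.0701). The mean ratio of each of these 4 genes stayed above 0 throughout.

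The other tight junction genes did not follow Tjp1. Cldn5, the main claudin of the blood-brain barrier, had ratios of -0.16, -0.13, -0.23 and -0.05, with a mean of -0.14 ± 0.08 (SD, n = 4; limma adjusted p = 0.0730). Ocln, which encodes occludin, averaged -0.01 ± 0.13 (limma adjusted p = 0.918), with -0.09, -0.07 and -0.07 on arrays 1 to 3 and 0.18 on array 4. Its second, dimmer probe averaged 0.09. Esam, an adhesion molecule at the same contacts, averaged -0.03 ± 0.12. Cdh5, the VE-cadherin of adherens junctions, had ratios of 0.14, 0.09, 0.21 and 0.40, with a mean of 0.21 ± 0.14 (limma adjusted p = 0.0515), which lies just past the threshold. When a gene's probes were averaged it reached 0.0486.

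Egfl7, a matrix protein secreted by endothelium, resembled Cldn5, with ratios of -0.14, -0.12, -0.23 and -0.07 and a mean of -0.14 ± 0.07 (SD, n = 4; limma adjusted p = 0.0697). Both Cldn5 and Egfl7 were below 0 in every pair and were called lower when limma's prior was allowed to follow intensity (adjusted p of 0.0413 and 0.0325). Under median centring their means were 0.25 and 0.30, so their direction depends on the scaling, although the latter lie close to the all-gene median of 0.28. Erg, an ETS transcription factor of endothelium, averaged -0.12 ± 0.11, with -0.01, -0.24, -0.05 and -0.16 on the 4 arrays. Its other probe was not well above background.

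The endothelial transcription factors Sox17 and Sox18 split by array. Sox17 had ratios of 0.01, -0.07, 0.41 and 0.50, with a mean of 0.21 ± 0.29, and Sox18 had ratios of 0.01, 0.04, 0.31 and 0.42, with a mean of 0.20 ± 0.20. Neither passed the test (limma adjusted p of 0.183 and 0.118). A second Sox17 probe was also lower on arrays 1 and 2 than on arrays 3 and 4, with -0.31, -0.27, 0.25 and 0.30, and a mean of -0.01. Arrays 3 and 4 were thus both above arrays 1 and 2 for these genes, an arrangement seen for 16 of 40 members (40.0%) and 22.5% of all genes.

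The surface receptors of the endothelium stayed near 0. Kdr and Flt1, the VEGF receptors, averaged -0.08 ± 0.13 and -0.08 ± 0.11, and a second Kdr probe averaged 0.17 with ratios from -0.27 to 0.60. Tek and Tie1, the angiopoietin receptor and its partner, averaged 0.03 ± 0.05 and 0.02 ± 0.08, and Eng, a TGF-beta co-receptor, averaged 0.03 ± 0.14. Under median centring Kdr, Flt1 and Esam averaged 0.31, 0.32 and 0.25, near the all-gene median there. Of the remaining surface proteins, the sialomucins Podxl and Emcn averaged 0.18 ± 0.15 and 0.12 ± 0.04 with all 4 arrays above 0. Ly6c1, a surface antigen related to Ly6a, averaged 0.22 ± 0.23, with 0.53 on array 4, and its second probe averaged 0.10, with -0.11, -0.12, 0.16 and 0.49. Itm2a, a membrane protein abundant in brain endothelium, averaged 0.00 ± 0.07. The limma adjusted p of these 9 genes lay between 0.0773 and 0.952.

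Of the 6 barrier transporters, Slc2a1 was higher and the other 5 were not called. Slc2a1 (NM_011400, chromosome 4) encodes GLUT1, which carries glucose across the endothelium and is also made by astrocytes. Its level was 13.07, 13.04, 13.42 and 13.51 in the samples labelled knockout of arrays 1 to 4, and 12.69, 12.96, 12.75 and 12.65 in their wild-type partners. The knockout samples of arrays 3 and 4 were the highest of their group, and the wild-type samples lay within 0.31 of each other. The ratios were 0.38, 0.08, 0.67 and 0.86, with a mean of 0.50 ± 0.34 (SD, n = 4; 1.41-fold; limma adjusted p = 0.0324). The call was lost without array 1, 3 or 4, at adjusted p of 0.0742, 0.104 and 0.0705, and the mean without array 4 was 0.38.

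Mfsd2a, the lipid transporter that restrains transcytosis in brain endothelium, had ratios of -0.06, -0.03, 0.22 and 0.39, with a mean of 0.13 ± 0.21 (limma adjusted p = 0.284). Abcb1a, the P-glycoprotein drug pump, had ratios of -0.15, -0.05, 0.11 and 0.30 and a mean of 0.05 ± 0.20. Abcg2, another efflux pump, had -0.18, -0.29, -0.01 and 0.16 and a mean of -0.08 ± 0.20. These 3 genes shared the arrangement of Sox17 and Sox18, low on arrays 1 and 2 and higher on arrays 3 and 4. The organic anion transporters Slco1a4 and Slco1c1, the latter a thyroxine carrier, averaged 0.03 ± 0.19 and -0.04 ± 0.18. Slco1a4 was highest on array 4 (0.30) and Slco1c1 on array 1 (0.21), and a second Slco1c1 probe averaged 0.00. Under median centring Abcg2 and Slco1c1 averaged 0.27 and 0.30, close to the all-gene median there.

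Of the 9 pericyte genes, Mcam and Notch3 were higher and the means of the other 7 lay between 0.04 and 0.14. Mcam (NM_023061, chromosome 9) encodes CD146, an adhesion molecule of pericytes, smooth muscle and endothelium. Its level was 12.54, 12.32, 12.42 and 12.77 in the samples labelled knockout and between 11.85 and 12.25 in the wild-type samples. The ratios were 0.55, 0.47, 0.49 and 0.52, with a mean of 0.51 ± 0.04 (SD, n = 4; 95% interval 0.42 to 0.60; limma adjusted p = 0.000753). Among the 7 called members it had the smallest SD of those above 1.2-fold, and it kept its call in all 14 alternative analyses, with means from 0.33 to 0.90. A second, much dimmer Mcam probe averaged 0.15, with 0.21, 0.26, 0.06 and 0.06, and was not called (limma adjusted p = 0.0831).

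Notch3 (NM_008716, chromosome 17), the Notch receptor of mural cells, had ratios of 0.18, 0.07, 0.19 and 0.25, with a mean of 0.17 ± 0.08 (SD, n = 4; 1.13-fold; limma adjusted p = 0.0428). It lost the call when any 1 of the 4 arrays was left out, at adjusted p of 0.0787 to 0.137. Pdgfrb, the PDGF receptor that defines pericytes, averaged 0.08 ± 0.11, and Cspg4, the NG2 proteoglycan that oligodendrocyte precursors also carry, averaged 0.04 ± 0.26. Cspg4 was at -0.12, -0.14 and -0.03 on arrays 1 to 3 and at 0.42 on array 4. The potassium channel subunit Abcc9 had a similar shape, with -0.03, -0.04, 0.15 and 0.41.

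Vtn, which encodes the matrix protein vitronectin and is abundant in brain pericytes, had ratios of 0.11, 0.08, 0.09 and 0.29, with a mean of 0.14 ± 0.10 (limma adjusted p = 0.0901). Anpep, the CD13 peptidase, averaged 0.10 ± 0.14, Rgs5, a regulator of G protein signalling, 0.09 ± 0.23, and Higd1b, a mitochondrial protein enriched in pericytes, 0.05 ± 0.13. All 9 pericyte genes were above 0 on array 4, beside 54.3% of all genes. On arrays 1, 2 and 3, 6, 3 and 7 of 9 were above 0, beside 53.5%, 53.6% and 53.4% of all genes.

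The contractile genes varied most between samples and none was called by limma, although Acta2 and Myh11 had an unadjusted p under 0.05. Acta2 (NM_007392, chromosome 19) encodes smooth muscle alpha-actin. Its level was 9.70, 10.11, 10.79 and 11.37 in the samples labelled knockout of arrays 1 to 4, and 9.42, 9.86, 10.72 and 9.85 in the wild-type samples. Both samples of array 3 were high, whereas on array 4 the knockout sample was the highest of its group and the wild-type sample was not. The ratios were 0.28, 0.26, 0.07 and 1.51, with a mean of 0.53 ± 0.66 (SD, n = 4; 95% interval 0.03 to 1.03; limma adjusted p = 0.138).

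Cnn1 (NM_009922, chromosome 9), the actin-binding calponin, followed the same arrangement. Its level was 7.84, 8.16, 8.87 and 9.59 in knockout and 7.69, 7.94, 9.01 and 7.81 in wild type. The ratios were 0.14, 0.22, -0.14 and 1.78, with a mean of 0.50 ± 0.86 (SD, n = 4; 95% interval -0.14 to 1.15; limma adjusted p = 0.257). On array 3 both samples were high together and the ratio was below 0.

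Tagln (NM_011526, chromosome 9), which encodes the actin-binding protein SM22, had levels of 11.20, 11.31, 11.71 and 12.22 in knockout and 11.08, 11.24, 11.80 and 11.02 in wild type. The ratios were 0.12, 0.06, -0.09 and 1.20, with a mean of 0.32 ± 0.59 (limma adjusted p = 0.286). Myh11 (NM_001161775, chromosome 16), the smooth muscle myosin heavy chain, had levels from 6.82 to 7.67 in knockout and from 6.58 to 7.18 in wild type. Its ratios were 0.24, 0.22, -0.02 and 0.74, with a mean of 0.30 ± 0.32 (limma adjusted p = 0.109). For all 4 genes the highest wild-type sample was that of array 3, and the highest knockout sample that of array 4.

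These levels were among the most variable on the array within each genotype as well. The range of Acta2 over the wild-type samples was 1.30, at the 99.9th percentile of all genes, and over the knockout samples 1.67. The range of Cnn1 was 1.31 in wild type and 1.75 in knockout, and that of Tagln 0.78 and 1.02. The median range over all genes was 0.19 in either channel. For Acta2, the spread of 1.30 between wild-type samples can be set beside the ratio of 1.51 within the pair on array 4.

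**Figure D3:**
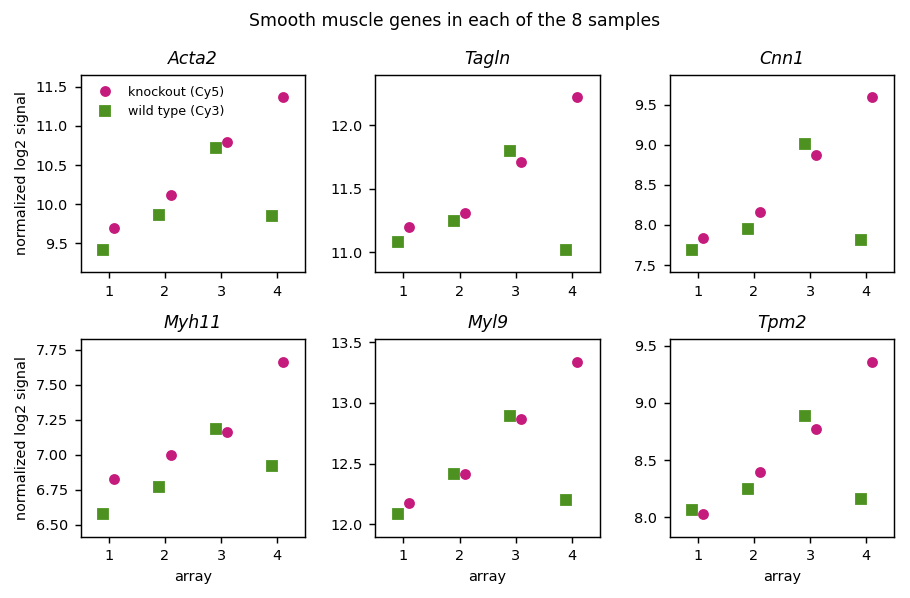
Normalized log2 signal (y axis) of 6 smooth muscle genes in the knockout sample (pink circle, Cy5) and wild-type sample (green square, Cy3) of each of the 4 arrays (x axis). On array 3 both samples are high, as for Acta2 at 10.79 and 10.72, and on array 4 the knockout sample alone is high, at 11.37 against 9.85.

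A second list of 12 smooth muscle genes, not among the 41, was examined beside them, and 9 were tested. Srf, which encodes the factor that binds the CArG box, was higher, with 0.55, 0.34, 0.24 and 0.30 and a mean of 0.36 ± 0.13 (SD, n = 4; limma adjusted p = 0.0114). Which cells of the cortex gave the Srf signal cannot be told from bulk RNA. Smtn, which encodes the actin-binding smoothelin, was also higher, at 0.32 ± 0.09 (limma adjusted p = 0.00954). The other 7 were not called, so 2 of 9 (22.2%) were higher, beside 9.12% of all genes. Myl9 and Tpm2, a myosin light chain and a tropomyosin picked out after their values were seen, were near 0 on 3 arrays and at 1.14 and 1.20 on array 4. Srf had no such jump on array 4, its largest ratio being that of array 1.

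Promoter sequence is shown for Srf and for 3 of the contractile genes that were high together in the knockout sample of array 4 (Acta2, Cnn1 and Myl9). They include promoters with and without the CArG box, the element that SRF binds. Whether the box has a part in these values was not tested. The table of RefSeq promoters (GRCm38.p6) held 29 of the 41 genes, with 3 of the 5 contractile ones. The 250 bases before the start site that the table uses were searched for the CArG box. Since the box is its own reverse complement, each position covers both strands. The box was found without mismatch in 1.47% of all 32851 promoters and with at most 1 mismatch in 18.6%. The 200 bases before the start are printed 5′ to 3′ on the gene's strand, with each match of at most 1 mismatch in capitals, for Acta2 at chr19:34255374-34255573 (minus strand), Cnn1 at chr9:22099053-22099252 (plus), Myl9 at chr2:156775264-156775463 (plus) and Srf at chr17:46556163-46556362 (minus). Start sites differ between annotated transcripts of these genes, so part of a window can lie inside another transcript.
Acta2: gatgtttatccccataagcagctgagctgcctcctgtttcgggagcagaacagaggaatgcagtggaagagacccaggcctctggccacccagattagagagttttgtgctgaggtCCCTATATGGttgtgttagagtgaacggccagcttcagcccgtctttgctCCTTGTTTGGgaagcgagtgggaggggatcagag
Cnn1: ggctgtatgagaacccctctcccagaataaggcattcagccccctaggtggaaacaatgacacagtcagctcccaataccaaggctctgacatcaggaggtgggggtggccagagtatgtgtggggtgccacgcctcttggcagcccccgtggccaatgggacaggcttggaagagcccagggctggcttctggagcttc
Myl9: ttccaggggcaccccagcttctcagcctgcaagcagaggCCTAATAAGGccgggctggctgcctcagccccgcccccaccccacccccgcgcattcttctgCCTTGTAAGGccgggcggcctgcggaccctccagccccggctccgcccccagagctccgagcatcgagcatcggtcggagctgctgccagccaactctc
Srf: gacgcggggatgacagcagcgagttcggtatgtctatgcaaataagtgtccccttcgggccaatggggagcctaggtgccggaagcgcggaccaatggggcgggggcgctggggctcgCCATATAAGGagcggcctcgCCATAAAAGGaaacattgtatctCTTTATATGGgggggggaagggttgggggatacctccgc
Acta2 held 2 matches with 1 mismatch each, CCCTATATGG at -84 to -75 and CCTTGTTTGG at -34 to -25, counted back from the base before the start. Myl9 held CCTAATAAGG without mismatch at -161 to -152, and Srf held CCATATAAGG at -82 to -73 and CCATAAAAGG at -62 to -53, both without mismatch. No match lay in the 250 bases before the start of Cnn1, Des, Tpm2, Itga8, Mylk or Smtn, which says only that these letters are not in these windows. None of the 29 members with a promoter held the box without mismatch. With at most 1 mismatch it lay in 1 of 3 contractile, 5 of 19 endothelial identity, 1 of 8 transporter and 1 of 7 pericyte promoters. In the second smooth muscle list it lay in 6 of 12 promoters, those of Cald1, Lmod1, Mrtfa, Myl9, Srf and Tpm1, and without mismatch in 2 of 12.

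Other lists, chosen by name with earlier results of these data known, covered signals to the vessel wall and its neighbours. Their counts beside the shares of all genes are therefore descriptions and not tests. The naming rule picked 31 genes outside the 41, Ndrg2 included, all of them called except the choroid plexus gene Kl. Of these, 17, 21, 15 and 11 lost their call without arrays 1, 2, 3 and 4. Among 17 tested genes of VEGF, angiopoietin, PDGF, Notch and TGF-beta signalling to the endothelium, 5 were higher and 1 lower, with a median of 0.06. For this list and the vascular lists that follow, the shares over all genes were 9.12% higher and 5.84% lower, so the 1 gene called among 13 further transporters, 7 artery or 7 vein genes is near that background. Notch4, the endothelial Notch receptor, was higher at 0.29 ± 0.16 (limma adjusted p = 0.0280) and its ligand gene Jag1 at 0.28 ± 0.12 (limma adjusted p = 0.0180), whereas Notch1 was lower in every pair at -0.37 ± 0.06 (limma adjusted p = 0.00355). Of 13 genes of the Wnt pathway that builds the barrier, 3 were higher and none lower: Lef1 at 0.33 ± 0.07, Fzd4 at 0.33 ± 0.17 and Ctnnb1 at 0.26 ± 0.09. At an unadjusted p under 0.05, 5 of the 13 were higher and 2 lower.

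Of 13 further barrier transporters tested, 1 was higher, the organic anion carrier Slco2b1 (0.24 ± 0.06, limma adjusted p = 0.0149). The list held divergent members, picked out after their values were seen. Slc38a5, a glutamine carrier, was at 0.88 and 0.55 on arrays 1 and 2 and at -0.40 and -0.22 on arrays 3 and 4, and Abcc4, an efflux pump, was at -0.17 and -0.12 against 0.52 and 0.73. Neither passed the test (limma adjusted p of 0.520 and 0.305). Of 7 artery genes, Gja5, a connexin, was higher (0.18 ± 0.07; -0.17 under median centring), and of 7 vein genes, the transcription factor Nr2f2 was (0.21 ± 0.08). Both lists had medians near those of the pericyte genes, at 0.08 and 0.10.

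Of 12 genes listed for the vascular basement membrane, 3 were higher. All 12 had a mean above 0, beside 54.9% of all genes, with a median of 0.13. Nid1, which encodes nidogen, averaged 0.38 ± 0.20, and the matricellular genes Sparcl1 and Sparc averaged 0.29 ± 0.03 and 0.15 ± 0.05, with limma adjusted p of 0.0193, 0.00678 and 0.0432. Whether vessel cells or other cells of the cortex gave these 3 signals was not tested. Of 10 further pericyte and perivascular genes, 4 were higher, led by the interferon-induced membrane protein gene Ifitm1 (0.51 ± 0.18, limma adjusted p = 0.00697) and the transcription factors Foxf2 (0.27 ± 0.12) and Tbx18 (0.26 ± 0.11). In 9 of these 10 genes the largest ratio was that of array 4.

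Markers of other cells that a cortical sample can hold were examined, beside 9.12% of all genes called higher and 5.84% called lower. Meningeal fibroblast markers were higher in 10 of 13 genes, and all 13 had a mean above 0, beside 54.9% of all genes. Their median was 0.43, with array medians of 0.45, 0.43, 0.23 and 0.60. Lum, a matrix proteoglycan, averaged 0.59 ± 0.11, Col1a1, a fibrillar collagen, 0.52 ± 0.29, and Mgp, a matrix protein also made by smooth muscle, 0.52 ± 0.41, with 1.13 on array 4. The summed signal of the list ran from 13.97 to 14.59 in knockout and from 13.54 to 14.34 in wild type on the log2 scale. The meningeal and contractile medians were both highest on array 4 and lowest on array 3, and both were above 0 on arrays 1 and 2. The medians of the endothelial identity genes, the second smooth muscle list and the oligodendrocyte genes had the same order, with smaller values. The highest wild-type sample was that of array 3 for 13 of 13 meningeal and 4 of 4 contractile genes, beside 18.6% of all genes. This was not particular to them, with 11 of 21 endothelial identity, 7 of 12 basement membrane, 6 of 10 further pericyte and 3 of 5 choroid plexus genes. It held for 3 of 9 pericyte genes and 0 of 6 barrier transporters. The highest knockout sample was that of array 4 for 7 of the 13 meningeal genes, among them Col1a1 and, picked out after their values were seen, Dcn and Col3a1, and that of array 3 for the other 6, beside 32.0% and 19.8% of all genes. The part of meningeal tissue in the vascular differences was not tested.

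Of the blood genes, 5 were tested and S100a9, a neutrophil gene, was lower (-0.56 ± 0.19, limma adjusted p = 0.00543). Hba-a1, an alpha-globin gene, was at -0.66, -0.15, -0.13 and 0.47, lowest on array 1 and highest on array 4, and the summed signal of the list ran from 13.71 to 14.48 in knockout and 14.04 to 14.36 in wild type. Microglia and macrophage genes were higher in 4 of 7, including Mrc1 (0.30 ± 0.13) and Lyve1 (0.27 ± 0.12; -0.062 under median centring) of perivascular macrophages and Tmem119 (0.27 ± 0.17) of microglia. Among 10 genes of astrocytes and their endfeet, 1 was called higher and 1 lower. Their median was 0.15 and 9 means were above 0, beside 54.9% of all genes. At an unadjusted p under 0.05, 6 were higher and 1 lower, or 70% in either direction against 34.8% of all genes. The gene called lower was Dag1, which encodes dystroglycan (-0.17 ± 0.06). Under median centring it was at 0.18, below the all-gene median of 0.28 there. Neuronal genes were higher in 2 of 7 (Snap25 0.20 ± 0.06, Rbfox3 0.16 ± 0.06) and oligodendrocyte genes in 1 of 6 (Mbp, 0.77 ± 0.11). None of 5 choroid plexus genes was called by limma. At an unadjusted p under 0.05, 1 of the 5 was higher (Kl, 0.13 ± 0.08) and 1 lower, or 40% against 34.8% of all genes. The sign of Kl turned under median centring. None of these array patterns was tested as a source of the vascular values.

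**Figure D4:**
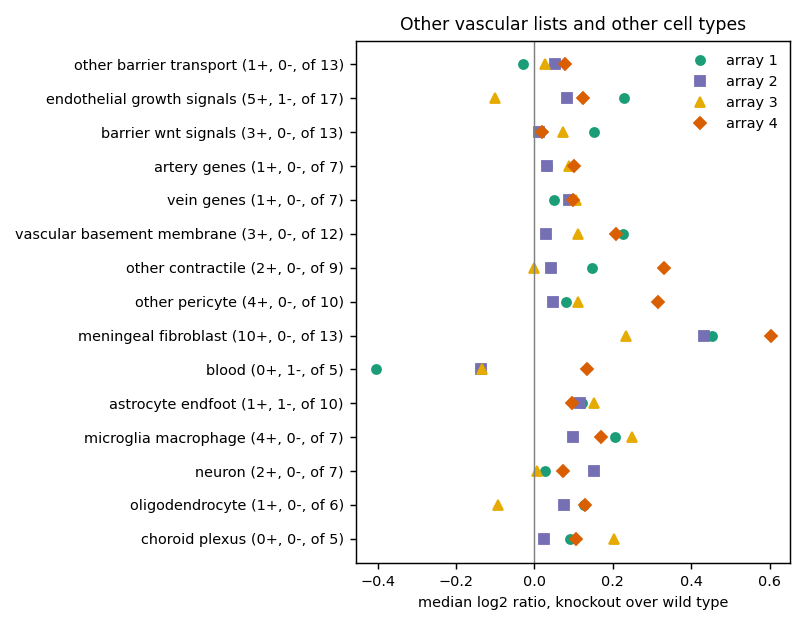
Median log2 ratio of knockout over wild type (x axis) on each of the 4 arrays for 8 further vascular lists and 7 lists of other cell types (y axis), with the number of genes called higher (+) and lower (-) by limma of those tested. The meningeal fibroblast medians lie between 0.23 and 0.60, and the blood medians between -0.40 and 0.13.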

How the data were processed

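The data were 4 dual-colour Agilent arrays, all in the same dye orientation. Per the file headers, the raw intensity is the median pixel signal of a spot in each channel, extracted with Agilent Feature Extraction 11.0.1.1; the submitters' processing notes give version 10.7.3.1. The deposited scanner files also hold a log10 ratio and its processed signals, background-subtracted and dye-normalized per the file headers. The authors' deposited log2 table equals log2 of red over green processed signal within 0.001 for 100% of singly spotted probes, with column medians of 0.04, 0.03, -0.04 and -0.04, so its scale and direction are known and no gene centring was seen.

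Ratios were computed from raw intensity with limma 3.58.1 in R 4.3.3: normexp background correction (offset 50) and loess within each array. Each array had 43020 spots, of which 1377 control spots had weight 0. Between 159 and 250 outlier spots were left out per array, 802 over the 4 arrays. Levels are red and green after loess and Aquantile normalization. Of 39429 probes, 27664 were kept (well above background in the red channel of all 4 arrays or in the green channel of all 4). Symbols came from matching transcript accessions to a RefSeq gene table of GRCm38.p6, which named 20764 kept probes, and each of 15759 genes is represented by its brightest kept probe. An intercept-only lmFit and eBayes fit (residual df 3, prior df 4.47) gave p-values, adjusted over all kept probes, and the procedure was tested on simulated data. The within-array ratio pairs the samples that share a replicate number, so the pairing, or replicate block, is part of the fit.

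Other alternatives were the processed signals, the deposited table, no background correction, an offset of 16, median centring, other filters, the mean of a gene's probes, an intensity trend, unpaired channels and leaving out each array. All 41 members are named, plus up to 3 called genes per other list by size of ratio, or the gene of smallest p; 1 gene so picked is not reported here. The members and lists were chosen with earlier results of these data known.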

Additional observations from a re-analysis of the deposited data

Results flagged for a closer look

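In 5 of 52 sets of 4 values examined, the highest value stood apart from the other 3 by a share of the whole range above Dixon's 95% critical value for 4 samples. Chance gives about 1 such set in 20 when sets are independent. These sets share the same 4 arrays and partly the same genes, so that rate is no baseline for their count. All 5 were log2 ratios of single genes, and in each the distant value was that of array 4. The value was 1.51 for Acta2 (0.28, 0.26 and 0.07 on the other arrays) and 1.20 for Tagln (0.12, 0.06 and -0.09), both smooth muscle genes. It was 0.29 for Vtn of pericytes (0.11, 0.08 and 0.09), 0.18 for Ocln of tight junctions (-0.09, -0.07 and -0.07) and 0.11 for Itm2a of endothelium (-0.03 on each of the other arrays). The sets examined were the ratios of the 40 tested members, the levels of the 4 contractile genes in either channel and the medians of the 4 groups.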

How the results depend on the processing

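The array-wide counts of 1437 higher and 920 lower genes were 782 and 557 from the processed signals of the scanner software, 779 and 550 with the deposited table, 10645 and 2326 with median centring, 321 to 955 and 131 to 588 with 1 array left out, and 456 and 224 without the replicate block, that is with unpaired channels. The 7 members called higher were 3 with processed signals, 3 with the deposited table, 4 with an offset of 16, 2 without the replicate block, 35 with median centring and 1 to 3 with 1 array left out. Mcam kept its call in all 14 alternatives and the fewest were kept by Notch3, with 5. Members called lower were 2 with the intensity trend and 1, Erg, with median centring, where 1 member also passed 1.5 fold on all arrays. Median centring moved the endothelial, transporter and pericyte medians to 0.30, 0.37 and 0.39. It turned the sign of Abcg2 (0.27), Cldn5 (0.25), Egfl7 (0.30), Esam (0.25), Flt1 (0.32), Kdr (0.31), Slco1c1 (0.30), Gja5 (-0.17), Dag1 (0.18) and Lyve1 (-0.062). The sign of Kl, not called under either scaling, also turned. Of the values above 0, those of Abcg2, Cldn5, Esam and Dag1 stayed below the all-gene median of 0.28. The cause of these moves was not tested. The 4 arrays limit the precision, and dim probes such as that of Des were not tested.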
